A study of Mus musculus with 2 samples.

Results

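The genes described here are the 9 members of a hyaluronan set: the synthases *Has1*, *Has2* and *Has3*, the receptor *Cd44*, the binding protein gene *Tnfaip6*, and the breakdown genes *Hyal1*, *Hyal2*, *Cemip* and *Cemip2*. They were chosen by symbol, each symbol matched 1 row, and all 9 were found among the 33696 genes listed for both libraries. The rule itself used no measured value, but the set was put together with earlier results of these data known. *Has1* is among the genes that the study selected on these same libraries, and *Has2* and *Cd44* are named in its text, so the direction of these 3 genes is not independent evidence.

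The data are single-cell RNA sequencing of neonatal ICR mice whose hindlimb digits had been amputated through the middle phalanx (P2) at postnatal day 3 and had received a bead at postnatal day 7. The bead carried FGF8 (500 ng/µl) in 1 group and 0.1% BSA, the carrier protein, in the control group, and the question behind the comparison is how digit cells respond to FGF8 at a wound that does not regenerate a joint by itself. At postnatal day 8, 24 h after the bead, cells were taken from 20 digits of 5 mice per group that were pooled into 1 library, after the surrounding epithelium had been removed. A pool may hold digits that would not have regenerated, and treatment, animals, dissection and library cannot be told apart.

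Hyaluronan is a long, unbranched sugar polymer that membrane-bound synthases make from UDP-sugars and push out of the cell, where it holds water and gives loose matrix, joint fluid and healing wounds their swollen, permissive texture. Cells bind it through surface receptors of which CD44 is the best known, secreted TSG-6 (the product of *Tnfaip6*) transfers protein chains onto it and so stabilizes it, and hyaluronidases together with the CEMIP proteins cut it into shorter pieces. In the developing limb the polymer surrounds mesenchymal cells and is cleared where cartilage condenses, and it fills the joint cavity as it forms.

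The BSA library held 3703 cell barcodes with a median of 14835 unique molecular identifiers (UMIs, 1 per captured transcript) and the FGF8 library 7249 with a median of 12285. The filters on genes and mitochondrial share kept 3252 and 6715 cells. The libraries shared 6 barcodes, 4 of them among kept cells. Cells whose sex could be called from sex-linked transcripts were 79.3% female in the BSA library and 24.6% female in the FGF8 library, so that within-sex ratios are given for the fibroblast-like cells and for other cell types where the sexes did not both follow the pooled ratio. Cells fell into 9 clusters, named by their markers, and the fibroblast-like cluster was the largest, with 2018 BSA and 3812 FGF8 cells. All 9 fibroblast markers of the list were detected in it, and 3 of them were among its 10 leading genes. It also contained keratinocyte-like cells, which carried 5.55% of its UMIs, and these are described separately. Levels are given as CPM, the UMIs of a gene per 1000000 UMIs of the summed cells, and every interval is a 95% interval that covers counting error only, since UMIs of 1 library say nothing about the spread between animals.

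The genes lie on 7 chromosomes of GRCm39, and the annotation lists each as protein coding. *Has1* (ENSMUSG00000003665) spans bases 18063585 to 18075467 of chromosome 17 on the minus strand, *Has2* (ENSMUSG00000022367) bases 56528342 to 56557999 of chromosome 15 on the minus strand, and *Has3* (ENSMUSG00000031910) bases 107596874 to 107611198 of chromosome 8 on the plus strand. *Cd44* (ENSMUSG00000005087) spans bases 102641486 to 102732010 of chromosome 2 on the minus strand, and *Tnfaip6* (ENSMUSG00000053475) bases 51927998 to 51946698 of the same chromosome on the plus strand. *Hyal2* (ENSMUSG00000010047, bases 107445086 to 107450171) and *Hyal1* (ENSMUSG00000010051, bases 107454126 to 107458909) are neighbours on the plus strand of chromosome 9. The end of *Hyal1* overlaps *Hyal3* on the same strand, so that the split of reads between these 2 genes is uncertain. *Cemip* (ENSMUSG00000052353) spans bases 83582065 to 83735724 of chromosome 7 on the minus strand and *Cemip2* (ENSMUSG00000024754) bases 21755657 to 21836114 of chromosome 19 on the plus strand.

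The RefSeq promoter table, on the build GRCm38.p6, matched 6 of the 9 members. The 250 bases before the start are shown for *Has1*, *Tnfaip6* and *Cd44*, 3 members with higher levels in the FGF8 library, each of another role, 5′ to 3′ on the strand of the gene. Capitals mark letters of the motifs searched on both strands, TGANTCA (AP-1), CCGGAA (Ets), TTGCNNAA (C/EBP) and GGGCGG (GC box), and lower case marks all other bases. *Has1* is at chr17:17855189-17855438 (minus strand), *Tnfaip6* at chr2:52037863-52038112 (plus strand) and *Cd44* at chr2:102901666-102901915 (minus strand).
Has1: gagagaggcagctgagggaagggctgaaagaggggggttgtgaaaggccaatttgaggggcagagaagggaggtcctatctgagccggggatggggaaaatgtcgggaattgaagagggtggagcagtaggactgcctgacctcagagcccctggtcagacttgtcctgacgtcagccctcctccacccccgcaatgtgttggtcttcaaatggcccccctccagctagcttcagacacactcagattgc
Tnfaip6: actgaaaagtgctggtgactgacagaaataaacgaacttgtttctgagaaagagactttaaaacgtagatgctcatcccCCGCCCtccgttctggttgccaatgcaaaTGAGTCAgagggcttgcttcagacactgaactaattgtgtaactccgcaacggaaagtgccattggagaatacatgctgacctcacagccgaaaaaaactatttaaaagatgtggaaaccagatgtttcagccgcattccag
Cd44: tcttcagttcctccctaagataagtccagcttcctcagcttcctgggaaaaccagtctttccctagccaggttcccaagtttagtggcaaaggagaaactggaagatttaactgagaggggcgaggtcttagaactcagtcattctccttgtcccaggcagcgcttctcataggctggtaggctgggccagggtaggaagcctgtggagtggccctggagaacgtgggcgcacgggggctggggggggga

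The *Tnfaip6* sequence held the AP-1 letters once, from 142 to 136 bases before the start, and the GC box letters once, from 171 to 166 bases before it. AP-1 letters occurred in 6.75% and GC box letters in 32.7% of 32851 promoters of the same length. None of the 4 motifs occurred in the *Has1* or *Cd44* window. Of these 250 bases, 58.0% were G or C for *Has1*, 56.4% for *Cd44* and 44.4% for *Tnfaip6*.

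In the fibroblast-like cells, both main synthase genes, the receptor and the binding protein gene were higher in the FGF8 library. Of the breakdown genes, *Cemip* and *Cemip2* were also higher, by smaller log2 ratios, *Hyal1* was lower, and the interval of *Hyal2* spanned 0. The counting interval lay wholly above 0 for 6 of the 9 members, against 23.2% of all 20566 genes with at least 10 UMIs, and wholly below 0 for 1 member, against 31.3%. An interval clears 0 more easily for a gene with many UMIs, and such shares, here and below, were not matched for UMIs. Only *Has1* passed a log2 ratio of 1, against 6.3% of all genes, and no member fell below -1, against 5.24%. The median log2 ratio was 0.60 over the members and -0.07 over all these genes.

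*Has1*, a synthase that many cells switch on in inflammation, had 1084 UMIs or 28.7 CPM in the BSA library and 5076 UMIs or 68.4 CPM in the FGF8 library. The log2 ratio of FGF8 over BSA was 1.25 (1.16 to 1.35), or 2.39-fold. The share of cells with a *Has1* UMI was 12.1% in the BSA and 26.8% in the FGF8 library, while the cells that had one held 4.44 and 4.97 UMIs on average. The 2 libraries thus differed more in the number of cells with the transcript than in the amount per such cell. After each cell was thinned to 2000 UMIs the shares were 2.77% (2.06 to 3.65) and 7.96% (7.07 to 8.92). Erythroid-like cells, which should lack the gene, gave 0 of 77 cells, which allows up to 3.90%, in the BSA library and 0.418% in the FGF8 library. Before thinning the median depth was 17997 and 17152.5 UMIs in fibroblast-like cells against 18691 and 6983 in erythroid-like cells, in the order BSA and FGF8. The thinned BSA share of *Has1* thus did not stand clear of this background limit, which rests on 77 cells, and the FGF8 share did. In the summed counts before thinning, erythroid-like cells held 0 CPM (0 to 2.54) of *Has1* in the BSA and 3.24 CPM (1.82 to 5.35) in the FGF8 library.

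*Has1* UMIs were concentrated in few cells. The 10% of fibroblast-like cells with the most *Has1* held 96.1% of its UMIs in the BSA library and 77.2% in the FGF8 library. For *Has2* the corresponding shares were 61.6% and 57.3%, and for *Cd44* 49.4% and 42.7%. Without the 1% of cells of each library that had the most *Has1* UMIs, its log2 ratio was 1.56.

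*Has2*, the synthase that embryonic limbs and hearts depend on, went from 34.3 CPM (32.5 to 36.3) to 58.5 CPM (56.8 to 60.2), a log2 ratio of 0.77 (0.68 to 0.86). Its share of cells was 30.5% and 40.9%, and after thinning 6.74% and 9.34%, where erythroid-like cells gave 1 of 77 and 2 of 479 cells. The BSA background again rests on 77 cells, so whether the thinned BSA share of *Has2* stands clear of it is uncertain. In the summed counts before thinning, erythroid-like cells held 2.75 CPM (0.75 to 7.05) of *Has2* in the BSA and 5.84 CPM (3.85 to 8.49) in the FGF8 library. *Has3*, a synthase typical of epithelia, had only 12 and 40 UMIs in the whole cluster, and its log2 ratio of 0.76 had an interval from -0.19 to 1.83. Without the keratinocyte-like cells 8 and 17 UMIs were left, with a log2 ratio of 0.12 (-1.17 to 1.54), so no difference was detectable at this depth.

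*Cd44* went from 146 to 220.2 CPM, a log2 ratio of 0.60 (0.55 to 0.64), and *Tnfaip6* from 270.0 to 413 CPM, a log2 ratio of 0.61 (0.58 to 0.65). Both were found in most fibroblast-like cells: *Cd44* in 62.3% of BSA and 74.1% of FGF8 cells, and *Tnfaip6* in 61.9% and 67.3%. For *Tnfaip6* the mean of a cell with a UMI went from 8.17 to 11.96 UMIs, so that here the amount per cell also differed. After thinning the shares were 27.5% and 35.2% for *Tnfaip6*, where erythroid-like cells gave 1 of 77 and 7 of 479 cells.

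Among the breakdown genes, *Hyal1*, a lysosomal hyaluronidase, was the member whose interval lay below 0: 5.24 CPM in the BSA library and 3.67 CPM in the FGF8 library, a log2 ratio of -0.51 (-0.78 to -0.24) on 198 and 272 UMIs. Neither sex alone gave an interval clear of 0, with -0.38 (-0.84 to 0.06) in cells called female and -0.31 (-0.87 to 0.29) in those called male, and after thinning the value was 0.017. *Hyal2*, a hyaluronidase anchored at the cell surface, was at 10.2 and 11.3 CPM, with a log2 ratio of 0.15 (-0.02 to 0.33). *Cemip2*, a transmembrane relative of CEMIP, went from 47.8 to 54.8 CPM, a log2 ratio of 0.20 (0.12 to 0.28). *Cemip*, which codes for a protein that binds hyaluronan and drives its cutting outside the cell, went from 10.1 to 12.4 CPM, a log2 ratio of 0.30 (0.12 to 0.47), and depended on which cells were counted, as described below for the subclusters.

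**Figure D1:**
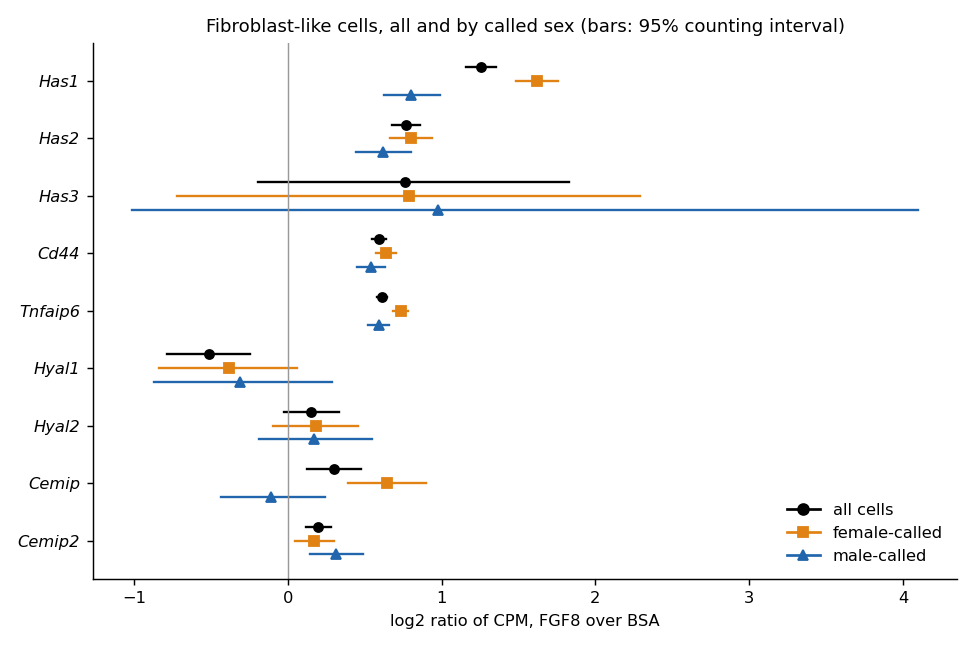
Log2 ratio of CPM, FGF8 over BSA (x axis), of each member (y axis) in all fibroblast-like cells (circles), female-called cells (squares) and male-called cells (triangles), with 95% counting intervals as bars. *Has1* lies farthest to the right in all cells, at 1.25, and in cells called female, at 1.62. In cells called male it is at 0.80, and *Has3* is farther right, at 0.98, with an interval from -1.01 to 4.10. *Hyal1* lies to the left of 0, and *Cemip* is at 0.65 in cells called female and at -0.11 in those called male.

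Within the sexes, *Has1* was at 26.1 and 80.2 CPM in 1248 BSA and 736 FGF8 female-called cells, a log2 ratio of 1.62 (1.49 to 1.76). In 328 BSA and 2292 FGF8 male-called cells it was at 36.9 and 64.4 CPM, a log2 ratio of 0.80 (0.62 to 0.99). The ratio was thus above 0 in each sex, with intervals that did not overlap. *Has2* (0.80 and 0.62), *Cd44* (0.64 and 0.54), *Tnfaip6* (0.73 and 0.59) and *Cemip2* (0.17 and 0.32) also had ratios above 0, given here for female and then male cells, with intervals clear of 0 in both. *Cemip* did not, at 0.65 (0.39 to 0.90) in cells called female and -0.11 (-0.44 to 0.24) in those called male. The part of the unequal sexes in the pooled values was not tested beyond these values.

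Fibroblast-like cells were re-clustered without the members, the other hyaluronan genes, the genes of the study's tables and sex-linked genes among the features, which gave 6 subclusters, numbered 0 to 5. Subcluster 0, led by *Prg4* (lubricin of the joint lining), *Spp1*, *Comp* and *Scx*, made up 29.2% of BSA and 38.2% of FGF8 fibroblast-like cells. *Has1* was highest in subcluster 3, led by *Lpl* and *Dlk1*, with 73.8 CPM (66.9 to 81.2) in the BSA and 146 CPM (138 to 155) in the FGF8 library. It followed in subcluster 0, with 36.8 and 76.3 CPM, and was low in subcluster 1, led by *Zfp536* and *Tmem132c*, with 4.54 and 17.6 CPM. The log2 ratio was 0.99 (0.83 to 1.15), 1.05 (0.93 to 1.18) and 1.96 (1.53 to 2.41) in subclusters 3, 0 and 1, so that *Has1* was higher in the FGF8 library in the cells that had much of it and in those that had little.

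*Has2* and *Tnfaip6* did not follow this in subcluster 1. *Has2* was at 28.5 and 29.9 CPM there (log2 ratio 0.07, -0.14 to 0.28) against 39.7 and 66.5 CPM in subcluster 0 (0.74, 0.62 to 0.87) and 42.7 and 75.3 CPM in subcluster 3 (0.82, 0.60 to 1.04). *Tnfaip6* was at 219 and 224 CPM in subcluster 1 (0.03, -0.04 to 0.11) against 354 and 493 CPM in subcluster 0 (0.48, 0.43 to 0.52) and 256 and 511 CPM in subcluster 3 (1.00, 0.91 to 1.08). *Cd44* had its largest ratio of these 3 subclusters in subcluster 0, from 152 to 249 CPM (0.71, 0.65 to 0.78), and 0.30 (0.20 to 0.39) and 0.29 (0.18 to 0.41) in subclusters 1 and 3. The intervals of subcluster 1 and those of subclusters 0 and 3 do not overlap for *Has2* and *Tnfaip6*, and a difference between subclusters could not be tested with 1 library per group. In the FGF8 library the highest level over all subclusters was 89.5 CPM for *Has2* and 323 CPM for *Cd44*, each in a subcluster other than these 3.

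*Cemip* differed in direction between subclusters. In subcluster 0 it was lower in the FGF8 library, with 17.2 CPM against 13.4 CPM (log2 ratio -0.36, -0.57 to -0.15). In subcluster 1 it went from 2.80 to 10.96 CPM (1.97, 1.42 to 2.55) and in subcluster 3 from 3.18 to 6.26 CPM (0.98, 0.19 to 1.84). Its small pooled ratio therefore summed opposite differences. *Cemip* was also found in few cells, as the 1% of cells with the most of it held 39.4% of its UMIs in each library.

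Subcluster 2 was marked by few UMIs (medians of 1619 and 1700 per cell) and led by *Lars2* and *Camk1d*. It had the highest ratios of the subclusters for *Has1* and *Cemip*, with intervals that overlapped those of subcluster 1. *Has1* went from 7.90 to 58.7 CPM on 11 and 139 UMIs (2.89, 2.01 to 3.93), and *Cemip* from 5.74 to 37.2 CPM on 8 and 88 UMIs (2.69, 1.65 to 3.95). *Prg4*, a gene of subcluster 0, went there from 21.5 to 1009 CPM, and the part of such transcripts from other cells in these 2 ratios was not tested. Without subcluster 2, which held 3.36% of the UMIs, the log2 ratio of the whole cluster was 1.22 for *Has1* and 0.18 for *Cemip*. Subcluster 5, with 22 and 47 cells, had intervals that spanned 0 for each of the 3 members with at least 10 UMIs, *Cd44*, *Tnfaip6* and *Cemip2*.

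**Figure D2:**
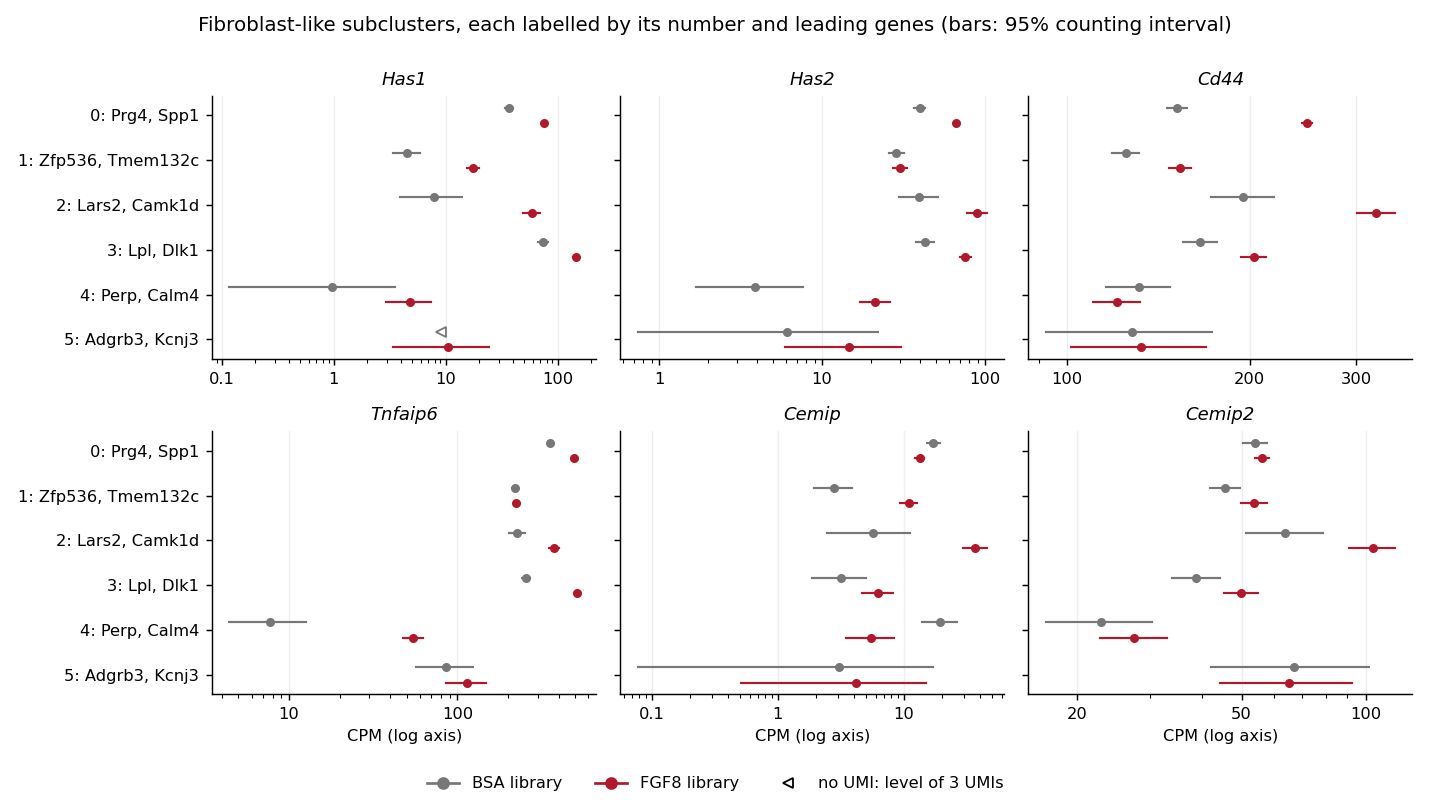
CPM on a log axis (x axis) of 6 members in the 6 fibroblast-like subclusters (y axis, each with 2 of its leading genes) in the BSA (grey) and FGF8 (red) library, with 95% counting intervals as bars and an open triangle at the level of 3 UMIs where there was none. *Has1* is highest in subcluster 3, *Has2* and *Tnfaip6* nearly coincide between libraries in subcluster 1, and the order of the libraries for *Cemip* is turned in subclusters 0 and 4.

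Subcluster 4 was keratinocyte-like, led by *Perp*, *Sfn*, *Dsp* and *Krt5*, with 154 BSA and 235 FGF8 cells that remained after the epithelium was taken off. Of the *Has3* UMIs of the whole cluster it held 4 of 12, all in 1 cell, or 1.94 CPM (0.53 to 4.97) in the BSA library and 23 of 40, in 17 cells, or 5.54 CPM (3.51 to 8.31) in the FGF8 library. In the FGF8 library this interval lay above that of the other fibroblast-like cells together (0.24 CPM, 0.14 to 0.39). The difference between libraries was not clear of counting error (1.51, -0.04 to 3.50), and the median depth of these cells was 6133 and 12825 UMIs. *Cemip* was lower in the FGF8 library here too, 19.4 against 5.54 CPM on 40 and 23 UMIs (-1.81, -2.62 to -1.03). *Tnfaip6* had 16 UMIs or 7.76 CPM in the BSA and 227 UMIs or 54.7 CPM in the FGF8 library (2.82, 2.08 to 3.65), and *Has2* 8 UMIs or 3.88 CPM and 88 UMIs or 21.2 CPM (2.45, 1.41 to 3.70). In these cells the 9 fibroblast markers stood at a median of 6.63% of their fibroblast-like level in the BSA and 9.58% in the FGF8 library. *Tnfaip6* stood at 2.72% and 12.6% of its level and *Has2* at 10.8% and 34.9%, and the part of fibroblast transcripts in these ratios was not tested.

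Among all cell types, the cluster with the highest level of a member was the same in both libraries for each member but *Has3*, which had no more than 5 UMIs per library in any cluster other than the fibroblast-like one, whose *Has3* is described above. *Has1* was highest in fibroblast-like cells, above each other type in both libraries, where it lay between 0 and 3.78 CPM in the BSA library and between 2.32 and 10.7 CPM in the FGF8 library, with overlapping intervals between neighbours.

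*Has2* was highest not in fibroblast-like but in chondrocyte-like cells, with 176 CPM (156 to 198) in the BSA and 157 CPM (144 to 172) in the FGF8 library. Schwann-like cells came next with 94.6 and 83.3 CPM, then fibroblast-like cells with 34.3 and 58.5 CPM, then smooth muscle or pericyte-like cells with 22.1 and 28.2 CPM, and the intervals of these 4 types did not overlap. Relative to the fibroblast-like cells without keratinocyte-like cells, *Has2* stood at 489% and 259% in chondrocyte-like and at 262% and 137% in Schwann-like cells, while the fibroblast markers stood there at medians of 14.4% and 10.6%, and of 4.00% and 9.25%. Between libraries *Has2* had log2 ratios of -0.16 (-0.38 to 0.05) in chondrocyte-like and -0.18 (-0.45 to 0.09) in Schwann-like cells, whose upper bounds lay below the fibroblast-like ratio of 0.77, and the intervals of each sex spanned 0 in both types.

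*Cd44* was highest in neutrophil-like cells, with 1544 CPM (1448 to 1645) and 1561 CPM (1502 to 1621), and second in macrophage-like cells, with 464 and 514 CPM. It was found in 93.7% and 92.4% of neutrophil-like cells. These leukocytes showed little difference between libraries: the log2 ratio was 0.02 (-0.09 to 0.12) in neutrophil-like and 0.15 (0.08 to 0.22) in macrophage-like cells, where it was 0.15 (0.04 to 0.27) in female and -0.01 (-0.14 to 0.12) in male cells. In chondrocyte-like cells it was 0.47 (0.27 to 0.66), in smooth muscle or pericyte-like cells 0.49 (0.27 to 0.71) and in Schwann-like cells 0.57 (0.35 to 0.78). By sex, the intervals were apart in chondrocyte-like cells, overlapped narrowly in Schwann-like cells and overlapped widely in smooth muscle or pericyte-like cells. *Cd44* was at 0.29 (0.04 to 0.54) in female and 1.59 (0.97 to 2.28) in male chondrocyte-like cells, and at 0.20 (-0.17 to 0.56) in female and 1.08 (0.55 to 1.67) in male Schwann-like cells. In smooth muscle or pericyte-like cells it was at 0.51 (0.15 to 0.87) in female and 0.30 (-0.09 to 0.71) in male cells. Endothelial-like cells had 31.3 and 28.8 CPM, under every other type but the erythroid-like cells, whose interval overlapped theirs in the FGF8 library.

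*Tnfaip6* was highest in fibroblast-like cells, followed by chondrocyte-like cells with 126 and 167 CPM and Schwann-like cells with 102 and 162 CPM, whose intervals overlapped each other, and by neutrophil-like cells with 57.9 and 131 CPM. *Tnfaip6* stood at 44.2% and 38.5% of its fibroblast-like level in chondrocyte-like and at 35.8% and 37.4% in Schwann-like cells. It stood at 20.3% and 30.1% in neutrophil-like and at 16.2% and 20.8% in smooth muscle or pericyte-like cells. The medians of the fibroblast markers there were, in this order, 14.4% and 10.6%, 4.00% and 9.25%, 9.33% and 24.1%, and 9.80% and 16.9%. The part of fibroblast transcripts in these values was not tested. The log2 ratio of *Tnfaip6* was 0.41 (0.17 to 0.65) in chondrocyte-like, 0.67 (0.44 to 0.91) in Schwann-like and 0.96 (0.67 to 1.27) in smooth muscle or pericyte-like cells. In chondrocyte-like cells the sexes went opposite ways, with -0.48 (-0.83 to -0.13) in female cells on 179 BSA and 112 FGF8 UMIs, and 3.68 (2.44 to 5.31) in male cells on 5 and 405 UMIs, the former in 39 and 40 and the latter in 11 and 79 cells. In Schwann-like cells the ratio was 0.27 (-0.09 to 0.63) in female and 2.48 (1.58 to 3.55) in male cells, and in smooth muscle or pericyte-like cells 0.52 (-0.01 to 1.04) and 1.36 (0.71 to 2.09). The pooled ratios of *Tnfaip6* in chondrocyte-like and Schwann-like cells thus do not describe the cells of both sexes. In smooth muscle or pericyte-like cells the intervals of the sexes overlapped, and both held the pooled ratio.

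The breakdown genes had other places. *Hyal2* was highest in endothelial-like cells, with 69.9 CPM (58.2 to 83.3) and 64.0 CPM (53.8 to 75.6), or 700.0% and 596% of the fibroblast-like level. *Cemip2* was highest there too, with 106 and 134 CPM, a log2 ratio of 0.34 (0.07 to 0.61) that neither sex showed: it was -0.07 (-0.56 to 0.41) in female and -0.48 (-0.91 to -0.03) in male cells. *Hyal1* was highest in macrophage-like cells, with 11.97 and 11.99 CPM (log2 ratio 0.00, -0.43 to 0.45), above the interval of the next type in each. *Cemip* was highest in chondrocyte-like cells, with 38.4 and 36.1 CPM. Its pooled log2 ratio there of -0.09 (-0.55 to 0.38) joined 1.16 (0.37 to 1.99) in female cells, on 21 and 41 UMIs, with -1.64 (-2.25 to -1.004) in male cells, on 34 and 69 UMIs. The female value rested on 39 BSA and 40 FGF8 cells, the male value on 11 and 79. Beyond chondrocyte-like and fibroblast-like cells, *Cemip* was found at no more than 2.32 CPM in any cluster. *Cemip2* in chondrocyte-like cells went from 29.0 CPM on 46 UMIs to 78.2 CPM on 247 UMIs (1.43, 0.97 to 1.92) in 54 and 134 cells, with 1.84 (1.26 to 2.45) in female and 0.85 (-0.03 to 1.89) in male cells.

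**Figure D3:**
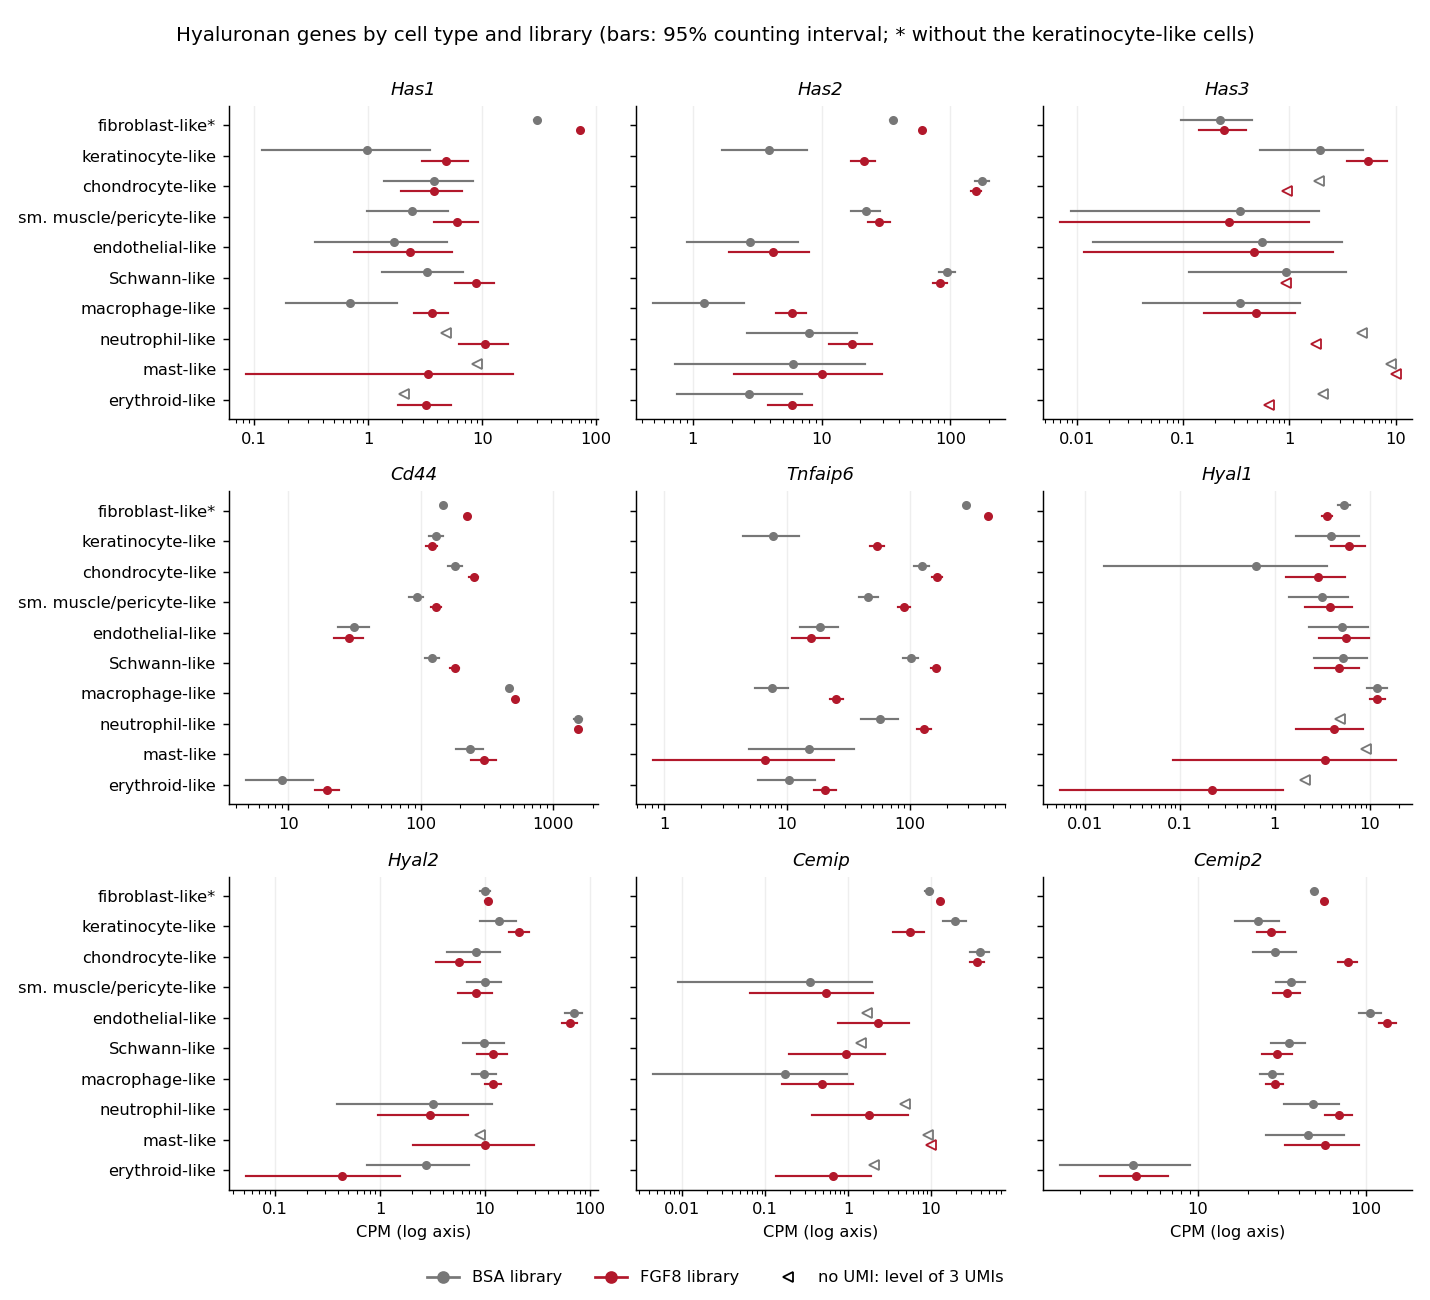
CPM on a log axis (x axis) of the 9 members in 10 groups of cells (y axis) in the BSA (grey) and FGF8 (red) library, with 95% counting intervals as bars and an open triangle at the level of 3 UMIs where there was none. *Has2* and *Cemip* are highest in chondrocyte-like, *Cd44* in neutrophil-like, *Hyal1* in macrophage-like, and *Hyal2* and *Cemip2* in endothelial-like cells.

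In macrophage-like cells 4 of the 7 members with at least 10 UMIs had intervals above 0, against 19.5% of 15320 genes, and none had one below 0, against 13.2%. *Has1*, *Has2* and *Tnfaip6* passed a log2 ratio of 1, against 8.77% of those genes, and none fell below -1, against 3.31%. *Has1* had 4 and 37 UMIs (2.38, 0.90 to 4.33), *Has2* 7 and 60 UMIs (2.27, 1.14 to 3.64) and *Tnfaip6* 44 and 259 UMIs (1.73, 1.26 to 2.22). The intervals of *Has2* and *Tnfaip6* lay above 0 in each sex, and that of *Has1* in female cells alone. These levels were small. They stood at 2.29%, 3.37% and 2.68% of the fibroblast-like level in the BSA library and at 4.99%, 9.64% and 5.81% in the FGF8 library. The 9 fibroblast markers stood at a median of 4.08% (2.22% to 6.38%) and 9.68% (7.65% to 11.2%) in the same cells, so that fibroblast transcripts moved along with these 3 members. Their part in the result was not tested. In erythroid-like cells *Has1*, *Has2* and *Tnfaip6* stood at 0%, 7.63% and 3.62% of the fibroblast-like level in the BSA library. In the FGF8 library they stood there at 4.49%, 9.62% and 4.73%, close to the macrophage-like values. The marker medians of the erythroid-like cells were 8.40% and 8.22%. Over the 8 other cell types, the members with at least 10 UMIs were 8 in chondrocyte-like cells. They were 7 each in Schwann-like, macrophage-like and smooth muscle or pericyte-like cells, and 6 in endothelial-like cells. Erythroid-like and neutrophil-like cells had 5 each, and mast-like cells 2. Of all these pairs of a member and a cell type, 19 had an interval above 0, where 11.7% of all such pairs of genes and types did. None had one below 0, where also 11.7% did. Within the sexes, 3 of these 19 had intervals above 0 in both, 10 in 1 sex and 6 in neither, and 2 had an interval below 0 in 1 sex. Erythroid-like cells, which should not transcribe the synthases, gave 3 of these 19, with *Has1* at 0 UMIs in the BSA and 15 UMIs in the FGF8 library.

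Single fibroblast-like cells, thinned to 2000 UMIs and without keratinocyte-like cells, showed which members occurred together. In the FGF8 library 60.4% (54.3 to 66.3) of the 268 cells with *Has1* also had *Tnfaip6*, against 35.2% (33.4 to 36.9) of the 2913 cells without it, and 47.4% against 29.1% had *Cd44*. The BSA library gave 49.0% (34.4 to 63.7) of 49 cells against 28.8% (26.6 to 31.1) for *Tnfaip6*, and 40.8% (27.0 to 55.8) against 20.7% (18.7 to 22.7) for *Cd44*. *Has2* was found in 15.7% (11.5 to 20.6) of FGF8 cells with *Has1* and in 9.23% (8.21 to 10.3) of those without it, whereas in the BSA library the shares were 6.12% (1.28 to 16.9) and 7.18% (5.96 to 8.55). *Cemip* showed no such excess, with 1.87% (0.61 to 4.30) against 2.57% (2.03 to 3.22) in the FGF8 library. These shares describe cells of 1 library, not replicates.

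Cells with a *Prg4* UMI after thinning, 110 in the BSA and 832 in the FGF8 library, had more *Cd44* than cells without one in the FGF8 library, 291 CPM (266 to 318) against 182 CPM (170 to 195). In the BSA library the values were 186 CPM (134 to 253) and 136 CPM (123 to 149). *Has1* was at 75.7 CPM (63.1 to 90.2) with and 53.9 CPM (47.4 to 60.9) without *Prg4* in the FGF8 library, and at 19.5 CPM (14.9 to 25.1) in BSA cells without *Prg4*, while BSA cells with it held only 11 *Has1* and 6 *Has2* UMIs. Among cells with *Prg4* the log2 ratio of FGF8 over BSA was 0.60 (-0.29 to 1.64) for *Has1*, 1.46 (0.30 to 2.94) for *Has2*, 0.64 (0.18 to 1.14) for *Cd44* and 0.17 (-0.15 to 0.50) for *Tnfaip6*, so that the intervals of *Has1* and *Tnfaip6* spanned 0. Among cells without *Prg4* it was 1.47 (1.06 to 1.90) for *Has1*, 0.43 (0.11 to 0.76) for *Has2*, 0.43 (0.26 to 0.60) for *Cd44* and 0.63 (0.51 to 0.75) for *Tnfaip6*. A single UMI was enough to count a cell as having *Prg4*, which was much higher in the FGF8 library in subcluster 2 too, as given above. The class with *Prg4* may thus hold different kinds of cells in each library, which was not tested.

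The genes whose pattern over the 6 subclusters of both libraries was most like a member's were found by Pearson's r of log2(CPM + 10) over these 12 points, among 14732 genes with at least 100 UMIs. For *Has1* they were *Rsph1* (r = 0.96), *Sting1* (0.96) and *3930402G23Rik* (0.95). For *Has2* they were *Rad52* (0.97), *Pde4b* (0.96) and *Mvp* (0.96). For *Cd44* they were *Gm49171* (0.95), *Sele* (0.95) and *Phf19* (0.94). For *Tnfaip6* they were *Plod3*, *P4hb* and *Rpn2* (0.97, 0.96 and 0.96), the first a collagen-modifying enzyme and the others proteins of the endoplasmic reticulum. For *Cemip2* they were *Brip1os*, *B4galt6* and *Tjap1* (0.98, 0.97 and 0.97), for *Hyal2* *Pex16*, *Nol7* and *Dynlt3* (0.94, 0.93 and 0.90), for *Hyal1* *2610044O15Rik8*, *Adal* and *Gm10130* (0.87, 0.86 and 0.85) and for *Cemip* *Gm30092*, *Pfkp* and *Necab1* (0.89, 0.87 and 0.86). The points share libraries, and 2 of the subclusters are small or shallow, so these values are descriptive.

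Of 37 other hyaluronan genes, 25 reached 10 UMIs in the fibroblast-like cluster. Among them 8 had intervals above 0, where 23.2% of all genes did, and 12 below, where 31.3% did, and their median log2 ratio of -0.05 was close to that of all genes. The enzymes that supply UDP-sugars were split, 4 above and 4 below 0. *Uap1*, the pyrophosphorylase that makes UDP-N-acetylglucosamine, was highest, from 58.0 to 93.9 CPM (0.70, 0.63 to 0.77), and its relative *Uap1l1* lowest, from 22.6 to 16.4 CPM (-0.47, -0.59 to -0.34). *Ugdh*, which makes the other precursor, UDP-glucuronate, was named after its value was seen: it went from 75.7 to 122 CPM (0.69, 0.63 to 0.75).

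Of the 5 other receptors, *Hmmr*, a hyaluronan-binding protein that also works at the mitotic spindle of dividing cells, went from 37.1 to 102 CPM (1.46, 1.38 to 1.54), and it too is among the genes the study selected on these libraries. *Lyve1*, known from lymphatic vessels and some macrophages, was lower, with 68 UMIs or 1.80 CPM and 53 UMIs or 0.71 CPM (-1.33, -1.88 to -0.79). *Stab2* passed a ratio of 1 on only 8 and 32 UMIs, with an interval that spanned 0 (1.03, -0.12 to 2.36). All 4 measured proteoglycan and link protein genes, which bind hyaluronan in the matrix, had intervals below 0, against 31.3% of all genes. They ran from *Acan* (-0.05, -0.10 to -0.01) to *Hapln3* (-0.64, -0.93 to -0.35), and the interval of *Acan* held the median of all genes (-0.07).

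Among the protein partners, *Itih5*, an inter-alpha-trypsin inhibitor heavy chain gene, went from 339 to 153 CPM (-1.15, -1.19 to -1.11). *Ambp*, the partner of these chains, had 2 and 8 UMIs (1.03, -1.30 to 4.30). In lysosomal breakdown *Gusb* was highest (0.14, 0.04 to 0.24) and *Hyal3* lowest (-0.74, -1.50 to 0.02), the latter on 29 and 34 UMIs. Past a log2 ratio of 1 were thus 3 of the 25 genes, 2 of them with intervals that spanned 0, and 2 were below -1, against 6.3% and 5.24% of all genes.

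**Figure D4:**
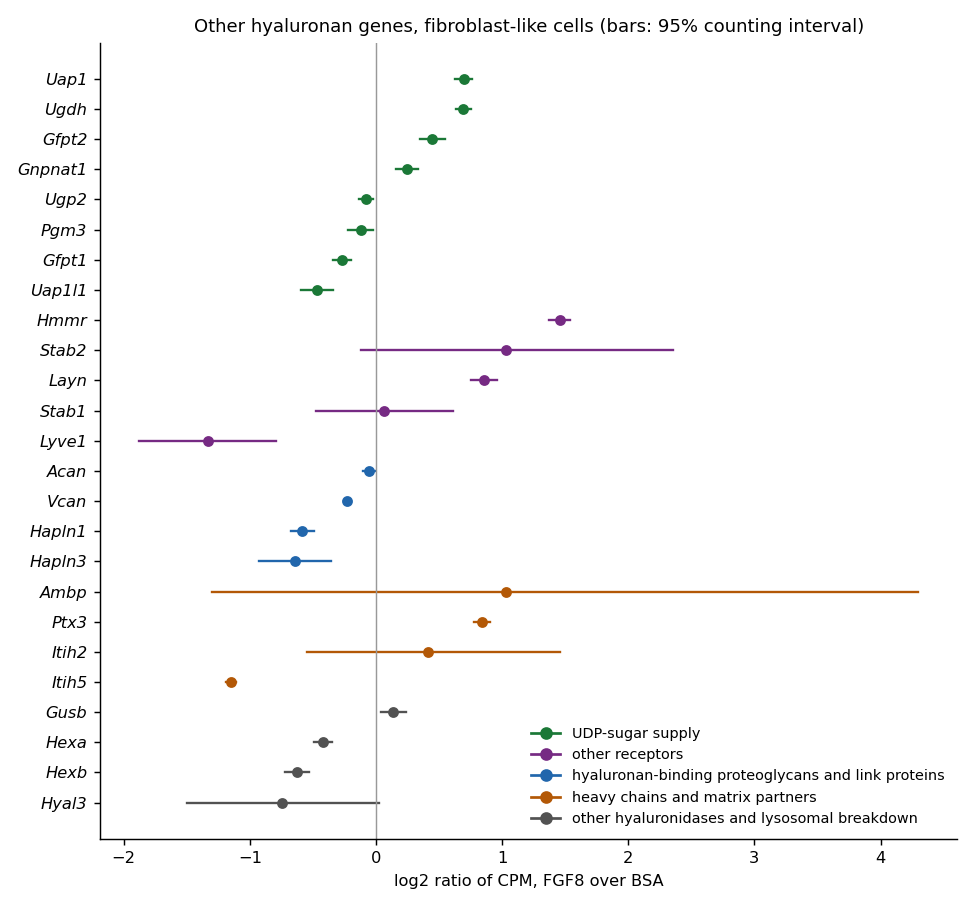
Log2 ratio of CPM, FGF8 over BSA (x axis), in fibroblast-like cells for the 25 other hyaluronan genes with at least 10 UMIs (y axis), coloured by group, with 95% counting intervals as bars. *Hmmr* (1.46) is farthest right of the genes whose interval is clear of 0, and *Lyve1* (-1.33) and *Itih5* (-1.15) are farthest left.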

How the data were processed

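Single-cell RNA was measured in 2 libraries, 1 per group. According to the methods the authors aligned the reads and counted UMIs per gene and barcode with Cell Ranger 9.0.0, and the deposited values are raw counts, not normalized. The members and gene lists were chosen with earlier results of these data known.

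Cells with more than 200 and fewer than 7500 genes and under 15% mitochondrial UMIs were kept, normalized by SCTransform, integrated by CCA and clustered on 30 principal components at resolution 0.05 (Seurat 5.3.0, sctransform 0.4.2, R 4.3.3, seed 42). Fibroblast-like cells were re-clustered at resolution 0.2. Clusters were named from marker lists, with at least 3 detected markers. The rule was changed after the clusters were seen: a macrophage cluster had first been left unnamed because the mean log2 fold of the T cell list was over 3, and the rule then also asked for at least 3 detected markers of the other type. The deposited counts were summed per library and cell type and divided by their total (CPM). Log2 ratios carry the exact conditional 95% interval of Poisson counts, levels the exact Poisson and shares the Clopper-Pearson interval. These cover counting error only. Genes that reached 10 UMIs in the 2 libraries together entered counts, and 0 allows up to 3 counts. Thinning drew 2000 UMIs per cell and left out 343 BSA and 781 FGF8 cells that held fewer. With 1 library per group no test was possible and no p-value is given.

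Doublets were not removed: Scrublet (scanpy 1.11.5) at its own threshold called 1 BSA and 3 FGF8 cells and so did not work, and an alternative left out the 85 and 361 cells with the highest scores. In counts simulated for the fibroblast-like comparison over 20268 genes, the interval held the true value for 95.8% of unchanged genes and for 92.0% of genes raised by a log2 ratio of 1. These counts were drawn from the Poisson model that the interval assumes. They had no concentration of UMIs in few cells, so they cannot show how well the interval holds for genes with it. Named were all members, pathway genes past a log2 ratio of 1 or highest or lowest in their group, and the 3 genes most like each member with at least 100 UMIs.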

Additional observations from a re-analysis of the deposited data

Results flagged for a closer look

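*Cemip* differed between the libraries in opposite directions among the fibroblast-like subclusters. Its log2 ratio of FGF8 over BSA was -0.36 in subcluster 0, led by *Prg4*, and -1.81 in the keratinocyte-like subcluster 4, and it was 1.97 in subcluster 1, 2.69 in subcluster 2 and 0.98 in subcluster 3. Each of these 5 counting intervals lay on 1 side of 0. The difference between subclusters was not tested, since there was 1 library per group.

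In chondrocyte-like cells 2 members differed between the libraries in opposite directions in the sexes, each with an interval on 1 side of 0. The log2 ratio of *Tnfaip6* was -0.48 for cells called female but 3.68 for those called male, and that of *Cemip* was 1.16 for the former but -1.64 for the latter. These values came from 39 BSA and 40 FGF8 cells called female, and from 11 BSA and 79 FGF8 cells called male. The number of animals behind each of these groups is not known, and the intervals cover counting error only. The difference between the sexes was not tested.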

How the results depend on the processing

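*Has1*, *Has2*, *Cd44*, *Tnfaip6* and *Cemip2* kept ratios above 0 in fibroblast-like cells under each alternative run, from 0.80 to 1.62, 0.47 to 0.83, 0.26 to 0.76, 0.51 to 0.73 and 0.16 to 0.39. *Hyal1* turned to 0.017 after thinning, and *Cemip* to -0.11 in male-called cells, while *Cemip* reached 1.61 at resolution 0.2. *Has3* and *Hyal2*, whose intervals spanned 0, went to -0.94 after thinning and to -0.10 with equal weight of cells. The number of members past a log2 ratio of 1, 1 as reported, was 2 at resolution 0.2, 2 with equal weight of cells, 0 in male-called cells, and 2 with equal subcluster weights in both libraries, an alternative chosen after seeing the data, as were those without the keratinocyte-like subcluster and without the subcluster with few UMIs. In the other cell types the 19 intervals above 0 became 12 without integration and 4 after thinning. Among genes with at least 100 UMIs, 3.04% passed a log2 ratio of 1 and 2.46% fell below -1. The cause of these changes was not tested. At resolution 0.2 the cluster led by *Prg4* stayed unnamed, and without integration macrophage, endothelial and keratinocyte cells fell into 1 unnamed cluster, so that no value was had there.

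No paired analysis was possible because each group was 1 library. Depth limits *Has3* most, with 12 and 40 UMIs, and the spread between animals is unknown for every value.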
